A study of Mus musculus with 4 samples.

Results

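The 44 genes described here encode the cyclins, cyclin-dependent kinases (CDKs), replication proteins and mitotic proteins that drive cell division. They were chosen by symbol from the 18854 genes listed for these libraries, and all 44 were found. Cultured wild-type mouse cortical neurons at 15 days in vitro (DIV) received the p53 activator Nutlin-3 for 2 days, in 2 libraries, or served as DMSO controls, in 2 libraries. The titles of the control samples name DMSO while their treatment label says that they were not treated, and the titles were followed. The labels give no Nutlin-3 dose, strain, embryonic age or number of animals, and nothing in them tells whether replicate libraries are separate cultures. The p-values below therefore measure the spread between these libraries, which may be technical.

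Cyclins bind and switch on CDKs, which start DNA synthesis and carry the cell into mitosis. In dividing cells p53 raises p21, the CDK inhibitor encoded by Cdkn1a, and unphosphorylated RB family proteins then hold E2F targets and, with the MuvB proteins as the DREAM complex, many G2 and M phase genes in a repressed state. Neurons have left the cell cycle for good, but cortical cultures also hold glia and progenitors that can divide, and Nutlin-3 frees p53 by blocking its binding to MDM2. The comparison asks whether cell cycle transcripts differed between cultures with and without Nutlin-3. Whether p53 was active in the treated cultures was not tested.

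The libraries held 19065197 and 17716272 reads with the p53 activator, against 14584247 and 14968028 with DMSO. Values are CPM, reads of a gene scaled to the library's total, so that 1 read was worth 0.0525 and 0.0564 CPM with the activator and 0.0686 and 0.0668 CPM with DMSO. Protein-coding genes held 83.0% and 82.5% of the CPM with the activator, against 73.4% and 75.8% with DMSO. A fold change of a coding gene on the deposited scale carries that difference in share. All coding genes tested had a median log2 fold change of 0.09, and scaling them to their own total moved that median by -0.14. Between the libraries of a group the 44 genes scattered nearer to counting error than genes did as a whole. The chi-square of their reads, divided by its degrees of freedom, was 1.09 with the activator and 1.91 with DMSO, against 5.06 and 4.43 over all genes. This ratio rises with the reads of a gene, and the members were not matched to other genes by level. It therefore does not show that the members varied less.

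All 44 genes had reads in every library, and all passed the filter of at least 1 CPM in at least 2 libraries, with which 16654 genes were tested. Cdk4, a kinase partner of the D-type cyclins, was the 1 member that rose with the activator by limma at an adjusted p under 0.05, and 0 members fell. Over all genes tested, 16.9% rose and 16.3% fell. All 44 members are protein-coding, and of the coding genes tested 21.2% rose and 7.19% fell. At an unadjusted p under 0.05 limma gave 4 members, edgeR 4 and DESeq2 0. The shares of coding genes at that unadjusted threshold were not counted. For limma they cannot lie below the 21.2% and 7.19% called after adjustment. edgeR on the reads recovered from the CPM called 0 members higher, where 10.6% of its genes were higher, and 2 lower, Mki67 and Top2a, where 16.1% of its genes were lower. Of its coding genes, 13.6% were higher and 7.84% lower. In bulk libraries such as these, fewer cells of a type and less RNA per cell cannot be told apart.

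The members' log2 fold changes centred on zero, with 22 above it and 22 below, a lowest value of -0.30 and a highest of 0.26. Their median was within 0.01 of zero, against 0.03 over all genes tested. For 15 of the 44 members every activator library was on one side of both DMSO libraries, 7 of them higher with the activator and 8 lower, where groups did not overlap for 67.6% of all genes tested and 65% of coding genes. As plain ratios of mean CPM, the members ran from 0.723 for Ccnb2 to 1.29 for Cenpa.

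**Figure D1:**
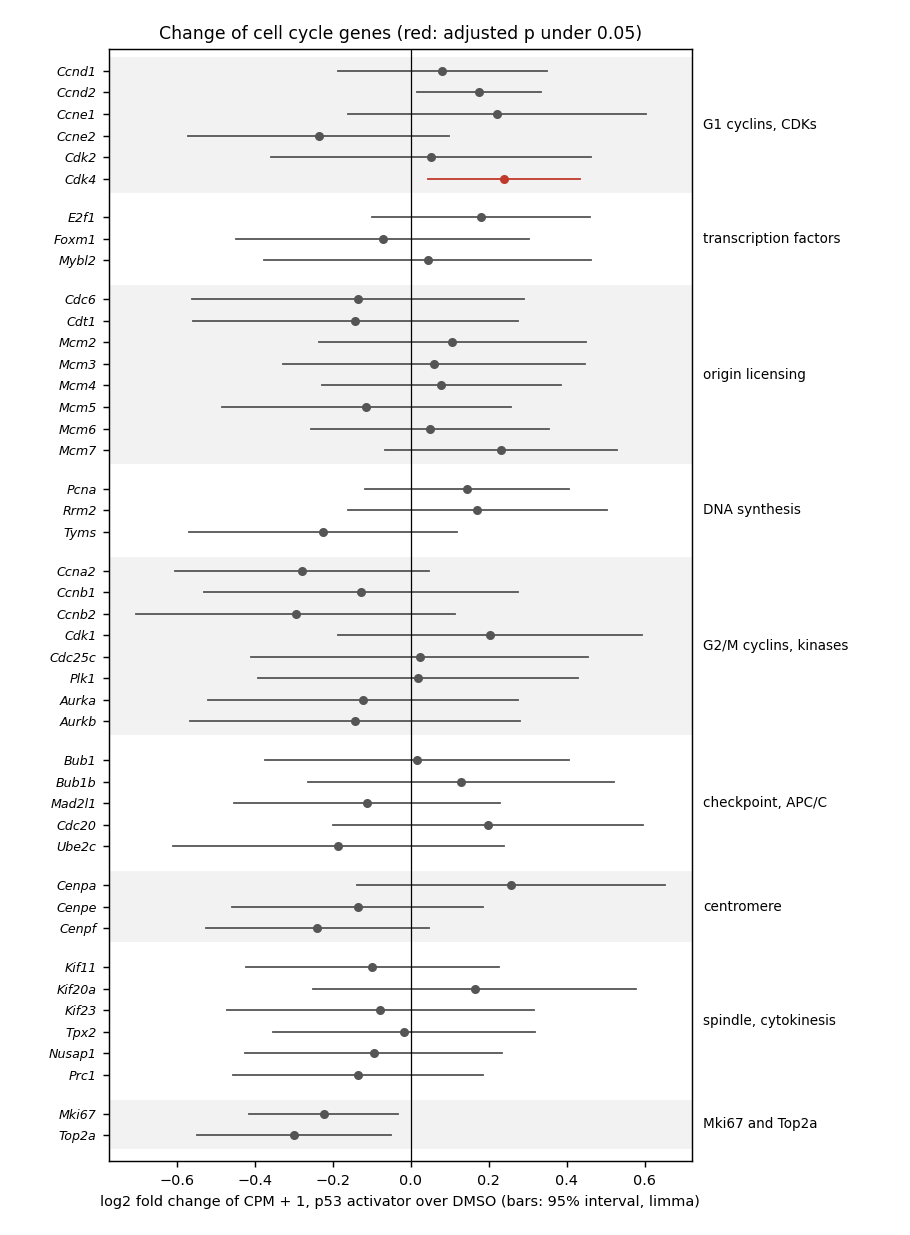
Log2 fold change of each of the 44 members, p53 activator over DMSO, on the log2(CPM + 1) scale, with 95% intervals from limma and the members grouped by role. Cdk4 is the one member called, and the point estimates run from -0.30 to 0.26.

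The width of the limma intervals limited what could be seen, and the part of depth in it was not tested. A 2-fold fall lay outside the 95% limma interval for 38 of the 44 members, and a 1.5-fold fall for 26. A 2-fold rise lay outside it for all 44, and a 1.5-fold rise for 34. The 6 members whose interval still held a 2-fold fall were Cdc6, Cdt1, Ccnb2, Cdc25c, Aurkb and Ube2c. Each was among the 22 members with a mean under 5 CPM, of which the interval left out a 2-fold fall for 16 and a 1.5-fold fall for 8. Fewer than 50 reads in at least 1 library were found for 21 members. DESeq2 gave larger standard errors for low members, such as 0.671 for Cdc25c and 0.514 for Kif20a, against 0.218 and 0.209 by limma. limma worked on log2(CPM + 1), which understates changes of low genes, and DESeq2 on reads. The changes left out above therefore hold for the limma intervals only.

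Promoter sequences are shown for 5 mitotic members that carry the DNA letters through which DREAM is known to bind G2 and M phase genes, the CHR element. The element was searched as TTTGAA or TTCGAA on both strands, in the window from 250 bases before to 50 bases after each gene's start in RefSeq's GRCm38.p6 annotation, a later build than the mm9 named in the submitters' processing notes. RefSeq windows were matched for 34 of the 44 members. The capitals mark the matches, and a match on the other strand reads TTCAAA or TTCGAA. All 5 genes lie on the minus strand, and each sequence runs 5′ to 3′ along the gene, from 25 bases before the first match to 25 bases after the last.
Top2a: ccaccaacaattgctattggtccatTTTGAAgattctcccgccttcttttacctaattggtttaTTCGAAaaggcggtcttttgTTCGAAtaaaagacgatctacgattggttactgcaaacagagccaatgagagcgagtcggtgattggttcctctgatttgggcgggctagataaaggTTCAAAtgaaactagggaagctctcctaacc
Mki67: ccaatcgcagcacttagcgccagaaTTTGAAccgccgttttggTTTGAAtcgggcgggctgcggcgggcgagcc
Ccnb2: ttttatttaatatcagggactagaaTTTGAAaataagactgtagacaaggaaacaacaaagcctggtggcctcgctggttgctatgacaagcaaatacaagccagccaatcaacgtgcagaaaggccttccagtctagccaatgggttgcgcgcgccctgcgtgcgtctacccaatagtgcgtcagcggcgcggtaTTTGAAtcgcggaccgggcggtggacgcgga
Cdk1: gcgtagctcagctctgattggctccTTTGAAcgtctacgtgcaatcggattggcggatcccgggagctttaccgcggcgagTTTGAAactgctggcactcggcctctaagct
Cdc20: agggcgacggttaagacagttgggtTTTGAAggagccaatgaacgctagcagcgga
The Top2a stretch lies at chr11:99024182-99024393, that of Mki67 at chr7:135716447-135716520, that of Ccnb2 at chr9:70421520-70421746, that of Cdk1 at chr10:69352897-69353008 and that of Cdc20 at chr4:118437331-118437386. Counted from the annotated start, the first base of the match was at -18 in Cdc20, at -71 and -15 in Cdk1, and at -116 and -98 in Mki67. Top2a had 4 matches, at -179, -140, -120 and -23.

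A CHR match was present for 17 of the 34 members, or 50%, against 21.7% of all 27025 RefSeq genes and 17.2% of tested genes. Mcm7 and Prc1 had more than a single window, and a match in any window counted. The Mcm7 window at chr5:138171217-138171516 held no match of either element. By role, 4 of 5 G2 and M phase cyclins and kinases had one, 4 of 5 checkpoint and APC/C genes, and 0 of 3 G1 cyclins and CDKs. Members with a match had a median log2 fold change of -0.08, and those without one 0.04, with a median standard error of 0.18 for a single member. E2F sites were searched as TTTGGCGC, TTTCGCGC or TTTCCCGC on both strands. They were present for 8 of the 34 members, or 23.5%, against 2.12% of all RefSeq genes and 3.57% of tested genes. Of these 8, 6 were origin licensing genes. The medians were 0.05 with an E2F match and -0.09 without, and 2 members carried both elements. A match describes letters in the window and does not show binding.

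Among the G1 cyclins and CDKs, Ccnd2, which encodes cyclin D2, was the most abundant member. It measured 397 and 387 CPM with the activator, against 330.3 and 365 CPM with DMSO. The activator libraries were both higher and the groups did not overlap, which also held for 65% of coding genes tested. Its log2 fold change was 0.18 ± 0.08 (SE) and missed the threshold, at a limma adjusted p of 0.0807. Without DMSO replicate 2 it passed, at a limma adjusted p of 0.0396. With edgeR the adjusted p was 0.279, and with coding genes scaled to their own total the log2 fold change was 0.02, with a limma adjusted p of 0.852. An antisense gene, 9330179D12Rik, overlaps 368 exonic bases of Ccnd2, and without strand information their reads cannot be told apart.

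Cdk4 measured 36.5 and 34.5 CPM with the activator, against 29.5 and 30.3 CPM with DMSO. Both activator libraries were above both DMSO libraries, with means of 35.5 ± 1.43 CPM with the activator and 29.9 ± 0.599 CPM with DMSO (SD, n = 2 each). The ratio of means was 1.19, and the log2 fold change 0.24 ± 0.10 (SE), with a limma adjusted p of 0.0490 and an edgeR adjusted p of 0.0860. The call did not hold when any 1 of the 4 libraries was left out, where limma adjusted p ran from 0.0736 without p53 activator replicate 2 to 0.242 without DMSO replicate 1. With coding genes scaled to their own total the log2 fold change was 0.09, with a limma adjusted p of 0.562. The exons of Cdk4 overlap those of Tspan31 on the other strand by 641 bases. In all, 10 members share exonic bases with a listed gene on the other strand, the others being Ccnd1, Ccne2, Ccna2, Cdc20, Kif20a, Mcm7, Nusap1 and Prc1.

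Of the other G1 genes, Ccnd1, encoding cyclin D1, had a log2 fold change of 0.08 and a limma adjusted p of 0.683, and the groups overlapped. Ccne1 and Ccne2, which encode the E-type cyclins that act with CDK2 at the start of S phase, had log2 fold changes of opposite sign, 0.22 and -0.24, with limma adjusted p of 0.400 and 0.291. Cdk2 itself had 0.05. Ccnd2 held most of the summed member signal: it made up 57.2% of the members' CPM.

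Per kilobase of annotated exon, where levels of different genes can be set side by side, Ccnd2 averaged 39.3 CPM per kb over the 4 libraries. Cdk4 followed at 10.1, then Pcna at 5.57, E2f1 at 3.56 and Mki67 at 3.44 CPM per kb. The lowest were Cdk2 at 0.269, Cdc6 at 0.196 and Cdc25c at 0.181 CPM per kb. The sources used here do not say whether intronic reads were counted, which would raise long genes on this scale.

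**Figure D2:**
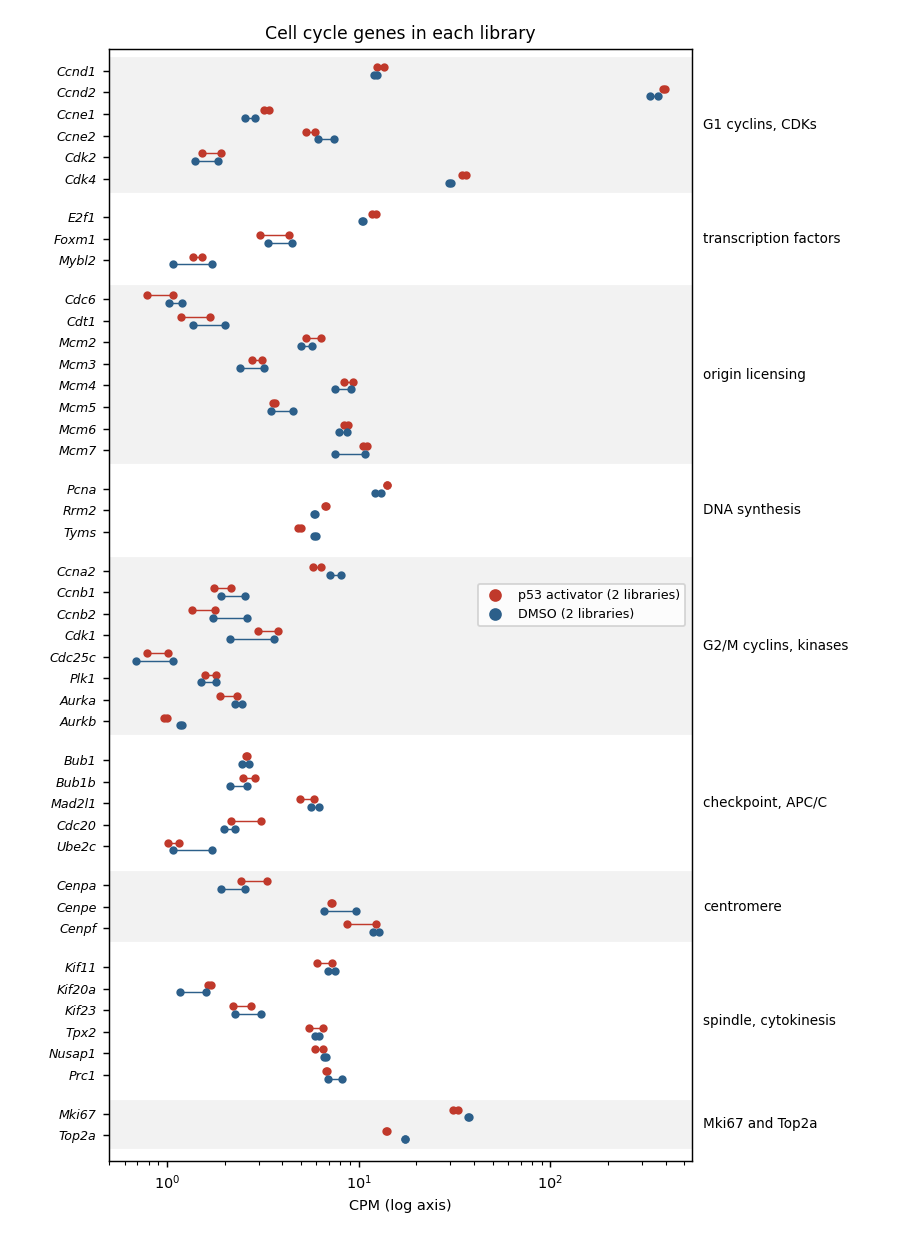
CPM of the members in each of the 4 libraries on a log axis, with the p53 activator drawn above DMSO and a line joining the 2 libraries of a group. Ccnd2, at 330.3 to 397 CPM, and Cdk4, at 29.5 to 36.5 CPM, stand above most members, and Cdc6 and Cdc25c lie near 1 CPM.

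The transcription factors that switch on cell cycle genes were measured at low levels. E2f1, an activating E2F, had 12.3 and 11.7 CPM with the activator, against 10.4 and 10.6 CPM with DMSO. The groups did not overlap, which also held for 65% of coding genes tested. Its log2 fold change was 0.18 ± 0.14 (SE), with a limma adjusted p of 0.338. Foxm1, which drives mitotic genes, had 3.04 and 4.35 CPM with the activator, against 3.36 and 4.48 CPM with DMSO. Its groups overlapped, as did those of Mybl2, a partner of MuvB in dividing cells.

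The 8 origin licensing genes, which load the MCM helicase onto DNA, had 0 members called and groups that overlapped for all 8. Of coding genes tested, 21.2% rose, 7.19% fell, and 65% had groups that did not overlap. Mcm7 measured 10.5 and 11.1 CPM with the activator, against 10.8 and 7.55 CPM with DMSO, with a log2 fold change of 0.23 and 1 DMSO library well below the others. Mcm4 measured 9.34 and 8.35 CPM with the activator, against 7.54 and 9.15 CPM with DMSO. The loading factors Cdc6 and Cdt1 lay between 0.787 and 2.00 CPM in all libraries, each with a log2 fold change of -0.14. Mcm2, Mcm3, Mcm5 and Mcm6, further helicase subunits, had log2 fold changes between -0.11 and 0.11.

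The 3 DNA synthesis genes each had groups that did not overlap, as did 65% of coding genes tested. Of the 3, 0 passed the test, beside the 21.2% of coding genes that rose and the 7.19% that fell. Pcna, the sliding clamp of the replicative polymerases, had 14.1 CPM in both activator libraries, against 13.1 and 12.2 CPM with DMSO, and a limma adjusted p of 0.427. Rrm2, a subunit of ribonucleotide reductase, had 6.66 and 6.77 CPM with the activator, against 5.90 and 5.81 CPM with DMSO. Tyms, which makes thymidylate, lay the other way, at 4.98 and 4.80 CPM with the activator, against 5.97 and 5.81 CPM with DMSO, and a limma adjusted p of 0.327.

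Among the G2 and M phase cyclins and kinases, 5 of 8 genes had negative log2 fold changes. Of the 8, 0 passed the test, beside the 21.2% of coding genes that rose and the 7.19% that fell. Ccna2, encoding cyclin A2, measured 5.77 and 6.38 CPM with the activator, against 8.09 and 7.08 CPM with DMSO. Both activator libraries were lower. The log2 fold change was -0.28 ± 0.16 (SE), and the limma adjusted p was 0.188. Ccna2 shares 510 exonic bases with Exosc9 on the other strand. Cdk1, the kinase that starts mitosis, measured 3.78 and 2.99 CPM with the activator, against 2.13 and 3.61 CPM with DMSO, so that the groups overlapped. The B-type cyclin genes Ccnb1 and Ccnb2, partners of CDK1, had log2 fold changes of -0.13 and -0.30, with Ccnb2 at 1.78 and 1.35 CPM with the activator, against 2.61 and 1.74 CPM with DMSO. The mitotic kinase genes Plk1, Aurka and Aurkb had 0.02, -0.12 and -0.14, and the phosphatase gene Cdc25c, which activates CDK1, had 10 to 18 reads per library.

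The spindle checkpoint and APC/C genes, which hold and then release the metaphase to anaphase switch, had a median log2 fold change of 0.02. Groups overlapped for all 5, where they did not overlap for 65% of coding genes tested. Mad2l1, a checkpoint protein gene, measured 5.87 and 4.97 CPM with the activator, against 6.24 and 5.61 CPM with DMSO. Bub1, a checkpoint kinase gene, measured 2.62 and 2.60 CPM with the activator, against 2.67 and 2.47 CPM with DMSO, which is a log2 fold change of 0.02. Bub1b, another checkpoint gene, had a log2 fold change of 0.13. Cdc20, the APC/C activator gene, had 0.20, and Ube2c, which encodes its ubiquitin-conjugating enzyme, had -0.19.

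Of the centromere genes, Cenpf measured 12.3 and 8.64 CPM with the activator, against 12.8 and 11.9 CPM with DMSO. A single activator library was low: leaving out p53 activator replicate 1 gave a log2 fold change of -0.47, with a limma adjusted p of 0.0336, against -0.24 and 0.198 with all 4 libraries. Leaving out p53 activator replicate 2 gave -0.01. Cenpe, a kinesin of the kinetochore, measured 7.29 and 7.17 CPM with the activator, against 9.74 and 6.61 CPM with DMSO. Cenpa, the centromeric histone H3, had the highest member log2 fold change, 0.26, with a limma adjusted p of 0.335.

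The spindle and cytokinesis genes had log2 fold changes between -0.13 and 0.16. Of the 6, 0 were called, beside the 21.2% of coding genes that rose and the 7.19% that fell. Prc1, which bundles midzone microtubules, measured 6.71 and 6.83 CPM with the activator, against 8.16 and 6.95 CPM with DMSO, and a limma adjusted p of 0.555. Kif11, the kinesin that separates spindle poles, measured 6.08 and 7.28 CPM with the activator, against 6.93 and 7.48 CPM with DMSO. Prc1 did not overlap between groups while Kif11 did. The log2 fold changes of Kif20a and Kif23, kinesins of cytokinesis, were 0.16 and -0.08, and those of Tpx2 and Nusap1, which organise spindle microtubules, were -0.02 and -0.10.

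The 2 usual markers of dividing cells had lower levels in both activator libraries. Mki67, encoding the Ki-67 protein of cycling cells, measured 32.9 and 30.9 CPM with the activator, against 37.6 and 37.1 CPM with DMSO. Top2a, encoding the topoisomerase that untangles mitotic chromosomes, measured 14.0 and 13.9 CPM with the activator, against 17.4 CPM in both DMSO libraries. Neither pair of groups overlapped, which also held for 65% of coding genes tested. The difference was small beside the level that remained: the ratios of means were 0.853 for Mki67 and 0.802 for Top2a.

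Both genes lay close to the threshold. For Mki67 the log2 fold change was -0.22 ± 0.10 (SE), with a limma adjusted p of 0.0632 and an edgeR adjusted p of 0.0303. For Top2a it was -0.30 ± 0.12 (SE), with a limma adjusted p of 0.0541 and an edgeR adjusted p of 0.0252. With coding genes scaled to their own total both fell, by 0.37 and 0.45 on the log2 scale, with limma adjusted p of 0.00293 and 0.00754. Under that scaling 0 members were higher and 2 lower, where 4.37% of coding genes were higher and 13.1% lower, and the members' median was -0.13, against -0.05 over coding genes. DESeq2 called neither, with adjusted p of 0.195 and 0.183.

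**Figure D3:**
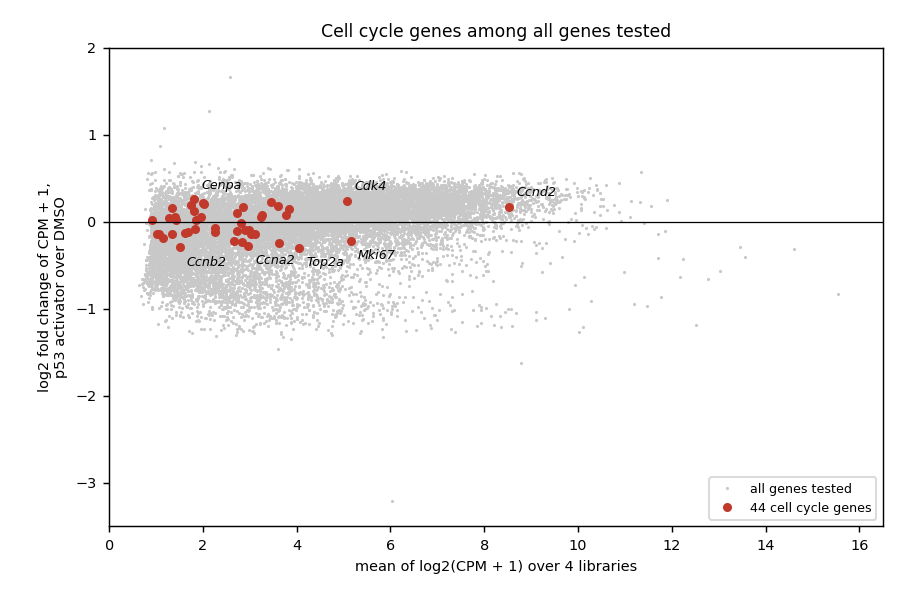
Log2 fold change, p53 activator over DMSO, against mean log2(CPM + 1) for all 16654 genes tested, with the 44 members marked. The members lie between -0.30 and 0.26, and Cdk4, Mki67 and Top2a sit among the more abundant of them.

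Summed over all 44 members, the libraries held 677 and 656 CPM with the activator, against 612 and 641 CPM with DMSO. Without the 6 G1 genes the sums were 220.03 and 210.09 CPM with the activator, against 228 and 223 CPM with DMSO. The sums thus lay on opposite sides, with log2 ratios of 0.09 and -0.07. For each the exact permutation p, two-sided, was 0.333, the smallest that 2 libraries against 2 allow. Mki67 and Top2a together summed to 46.9 and 44.8 CPM with the activator, against 55.1 and 54.5 CPM with DMSO. Under the scaling of coding genes to their own total the log2 ratio over all members changed sign, to -0.0609.

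**Figure D4:**
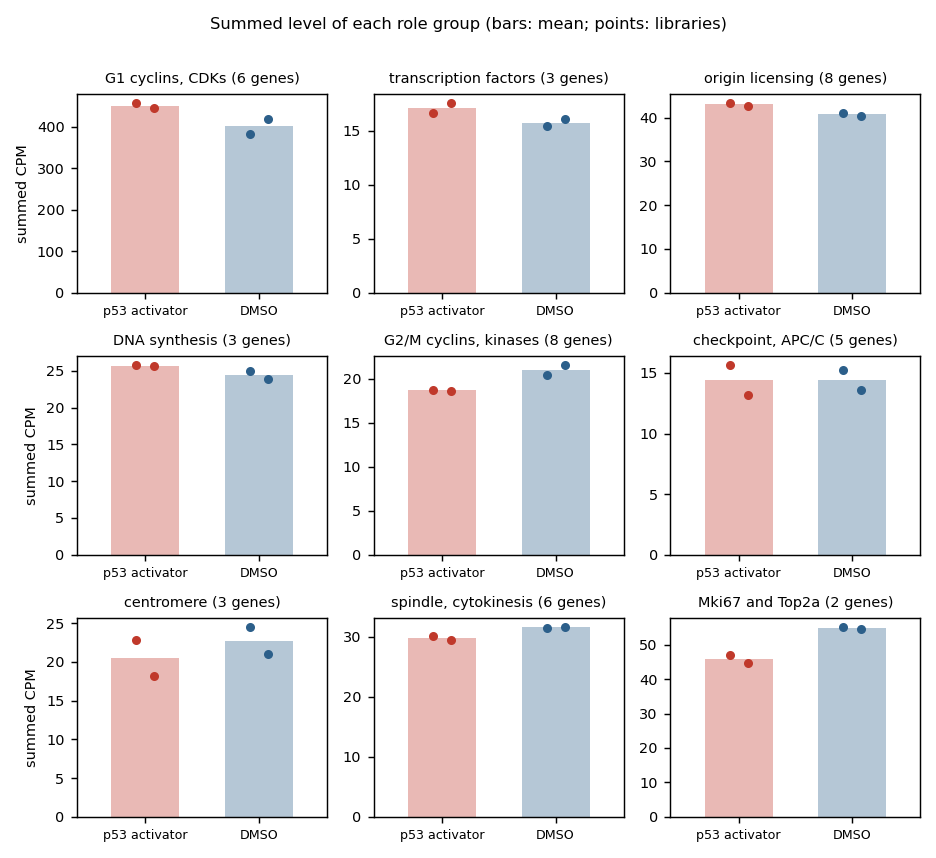
Summed CPM of each role group of members in each library, with the p53 activator libraries drawn left of the DMSO libraries. The G1 cyclins and CDKs sum to 457 and 446 CPM with the activator, against 384 and 419 CPM with DMSO, and the G2 and M phase genes to 18.7 and 18.6 CPM with the activator, against 20.4 and 21.5 CPM with DMSO. Bars are means, points are libraries, and each panel has its own axis from 0.

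The regulators upstream of these genes were read from lists of 122 further cell cycle genes, of which 114 were tested. By limma 12 rose and 8 fell, with a median log2 fold change of 0.06, beside the 16.9% and 16.3% of all genes and the 21.2% and 7.19% of coding genes that did. Own-total scaling of coding genes gave 3 that rose and 12 that fell, beside 4.37% and 13.1% of coding genes. When each of the 4 libraries was left out in turn, 5 of the 21 called genes, Cdk4 included in the 21, kept their call each time: Cdkn2d, Rbbp4, Pola1, Kif15 and Cdk5r1.

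Of the CDK inhibitors, Cdkn1a, which encodes p21 and is a direct p53 target, measured 22.8 and 19.1 CPM with the activator, against 18.3 and 18.1 CPM with DMSO. Both activator libraries were higher, but the log2 fold change of 0.19 ± 0.12 (SE) did not pass, with a limma adjusted p of 0.215 and an edgeR adjusted p of 0.267. Mdm2, another direct p53 target added here after its value was seen, had a log2 fold change of -0.16 on the same scale. Cdkn1b, encoding p27, rose: it measured 46.4 and 45.7 CPM with the activator, against 37.3 and 33.3 CPM with DMSO, with a limma adjusted p of 0.000842. That call was lost without DMSO replicate 2, at a limma adjusted p of 0.0522, and under own-total scaling, at 0.0674. Cdkn2d, encoding the INK4 protein p19 that binds CDK4 and CDK6, rose 1.56-fold, with 20.8 and 17.9 CPM with the activator, against 13.0 and 11.8 CPM with DMSO. Its limma adjusted p was 9.1e-05 and its edgeR adjusted p 0.000508. Of the 7 inhibitor genes 5 were tested, 2 rose and 0 fell, beside 21.2% and 7.19% of coding genes. Under own-total scaling 1 rose and 0 fell.

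Of the 13 pocket protein and DREAM genes 2 rose and 0 fell, beside 21.2% and 7.19% of coding genes. Under own-total scaling 1 rose and 1 fell. Rbbp4, a histone-binding MuvB subunit that also serves several chromatin complexes, measured 88.6 and 86.1 CPM with the activator, against 65.9 and 64.9 CPM with DMSO, with a limma adjusted p of 3.5e-05. Dyrk1a, the kinase that promotes DREAM assembly, measured 131 CPM in both activator libraries, against 102 and 112 CPM with DMSO, with a limma adjusted p of 0.00291, lost without DMSO replicate 1 at 0.129 and also under own-total scaling. Of 3 other E2F genes tested, 2 fell, beside 7.19% of coding genes, and 2 fell under own-total scaling. E2f3, an activator, measured 50.9 and 45.4 CPM with the p53 activator, against 58.8 and 56.1 CPM with DMSO, with a limma adjusted p of 0.0195. E2f7, an atypical repressor, measured 0.892 and 1.07 CPM with the activator, against 2.47 and 1.67 CPM with DMSO, with a limma adjusted p of 0.0163. The E2f7 call was lost without DMSO replicate 1, at 0.331, and without p53 activator replicate 1, at 0.0727. That of E2f3 was lost without each DMSO library and without p53 activator replicate 2.

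Replication genes outside the members included 3 that fell and 1 that rose, of 23 tested, beside 7.19% and 21.2% of coding genes. Under own-total scaling 3 fell and 0 rose. Pola1, the catalytic subunit of the primase-coupled polymerase, measured 14.3 and 14.6 CPM with the activator, against 21.1 and 19.8 CPM with DMSO, with a limma adjusted p of 0.00121. Both origin recognition subunits that fell, Orc1 and Orc4, lost their calls without DMSO replicate 1 and without p53 activator replicate 2, and Orc4 also without DMSO replicate 2. Orc1 measured 2.20 and 1.64 CPM with the activator, against 4.39 and 2.74 CPM with DMSO, with a limma adjusted p of 0.0105. Orc4 measured 78.3 and 68.9 CPM with the activator, against 85.9 and 86.9 CPM with DMSO, with a limma adjusted p of 0.0211. Fen1, the flap endonuclease gene named here after its value was seen, had 7.87 and 6.43 CPM with the activator, against 5.35 and 4.81 CPM with DMSO, with a limma adjusted p of 0.0465 and an edgeR adjusted p of 0.0622. Orc1 overlaps exons of Gm12743, Orc4 those of Acvr2a and Mbd5, and Fen1 those of Tmem258, on the other strand. The Fen1 call was lost without each library except p53 activator replicate 2, and under own-total scaling.

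Of 25 other mitosis genes tested, 1 passed, beside the 21.2% of coding genes that rose and the 7.19% that fell. Under own-total scaling 0 rose and 2 fell. Kif15, a spindle kinesin that also acts in neuronal processes, fell to 3.51 and 4.23 CPM with the activator, against 7.06 and 9.35 CPM with DMSO. The ratio of means was 0.472 and the log2 fold change -0.91 ± 0.17 (SE), with a limma adjusted p of 1.7e-05 and an edgeR adjusted p of 0.000158. No member reached a ratio this low. The 10 other cyclins and cell cycle kinases tested had 0 calls in either direction by limma on the deposited scale. Under own-total scaling 0 rose and 1 fell.

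The anaphase-promoting complex, which is also active in neurons, had 3 of 16 genes higher and 0 lower, beside 21.2% and 7.19% of coding genes, and 0 in either direction under own-total scaling. Anapc16 measured 37.9 and 32.7 CPM with the activator, against 28.5 and 27.9 CPM with DMSO. Anapc2, the cullin subunit, measured 36.9 and 34.9 CPM with the activator, against 28.7 and 29.7 CPM with DMSO. Fzr1, encoding the activator CDH1, measured 31.3 and 35.6 CPM with the p53 activator, against 27.1 and 27.4 CPM with DMSO. All 3 had groups that did not overlap, as did 65% of coding genes tested, and limma adjusted p between 0.0105 and 0.0222. Each call was lost without either DMSO library, those of Anapc16 and Anapc2 also without p53 activator replicate 1, and that of Fzr1 also without p53 activator replicate 2.

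CDKs and partners with roles outside the cycle had 4 of 19 genes higher and 2 lower, beside the same 21.2% and 7.19%. Under own-total scaling the balance turned, with 1 higher and 3 lower. Cdk5r1, encoding p35, the neuronal activator of CDK5, measured 340.5 and 343 CPM with the activator, against 258 and 277 CPM with DMSO, with a limma adjusted p of 0.000217. Ccny, a membrane cyclin, measured 211 and 183 CPM with the activator, against 162 and 161 CPM with DMSO. Its limma adjusted p was 0.00312, and 0.173 without p53 activator replicate 1. Cdk12, a kinase of elongating RNA polymerase II, measured 78.5 and 76.8 CPM with the activator, against 95.1 and 90.7 CPM with DMSO. Its limma adjusted p of 0.00929 was lost without DMSO replicate 1 and without p53 activator replicate 2. The remaining calls, named after their values were seen, were higher Cdk14 and Cdk17 and lower Cdk13, with limma log2 fold changes of 0.22, 0.23 and -0.23.

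**Figure D5:**
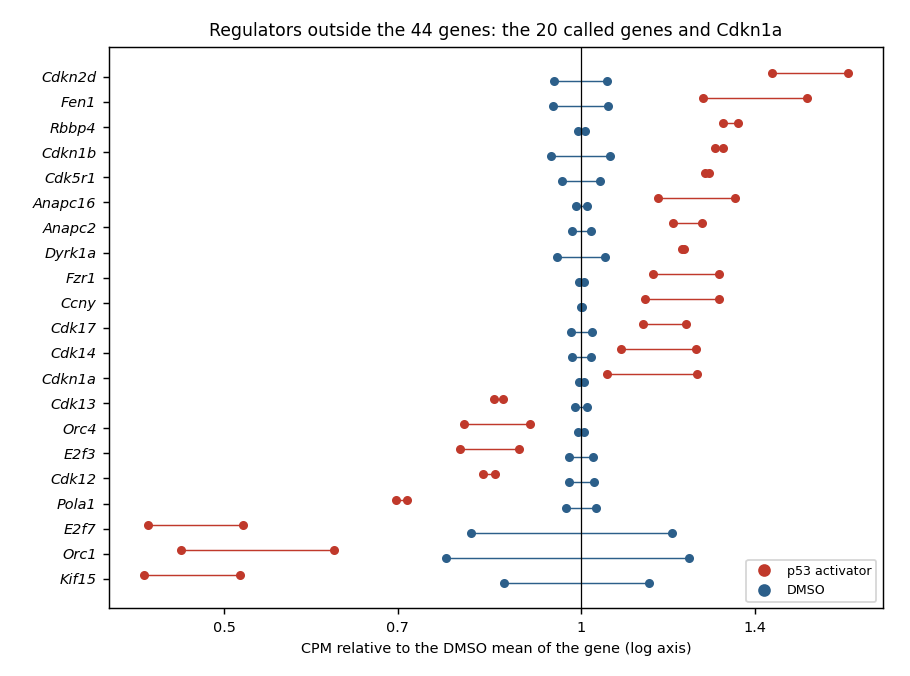
CPM of each library divided by the gene's DMSO mean, on a log axis, for the called genes among the 122 further cell cycle genes and for Cdkn1a, with the p53 activator drawn above DMSO. The points are libraries and the lines join those of a group. Kif15 has a ratio of means of 0.472 and Cdkn2d of 1.56.

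The cultures expressed neuronal markers at high levels, and markers of cells that can divide were also present. Of 8 neuronal markers 6 rose and 1 fell, beside 21.2% and 7.19% of coding genes, and under own-total scaling 5 rose and 2 fell, with Gad1 no longer called and Map2 lower. The list had summed CPM of 7397 and 7527 with the activator, against 6420 and 7194 with DMSO. Tubb3, a neuronal tubulin, measured 519 and 551 CPM with the activator, against 351 and 379 CPM with DMSO, with a limma adjusted p of 3.8e-08. Map2, the most abundant, was not called on the deposited scale, at 3564 and 3602 CPM with the activator, against 3605 and 4121 CPM with DMSO. Rbfox3, encoding the neuronal nuclear protein NeuN, was the one that fell, to 104 and 99.3 CPM with the activator, against 125 and 121 CPM with DMSO.

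Neural progenitor markers summed to 393 and 373 CPM with the activator, against 405 and 368 CPM with DMSO. Of 8 tested genes 0 were called, beside the 21.2% of coding genes that rose and the 7.19% that fell. Under own-total scaling 0 progenitor markers rose and 2 fell, beside 4.37% and 13.1% of coding genes. The 2 were Sox2 and Nes, lower by 0.34 and 0.24 on the log2 scale, with limma adjusted p of 0.0300 and 0.0323. Of those not called, Hes1 and Prom1 had log2 fold changes of 0.16 and 0.18. Vim, Pax6, Fabp7 and Hes5 had -0.0008, -0.18, -0.19 and -0.44. Of the list Fabp7 was the most abundant, at 222 and 191 CPM with the activator, against 225 and 199 CPM with DMSO. Astrocyte markers summed to 2759 and 2731 CPM with the activator, against 2409 and 2369 CPM with DMSO. In that list 1 gene of 9 rose and 0 fell, beside the same 21.2% and 7.19%. It was Slc1a2, a glutamate transporter, with 1572 and 1569 CPM with the activator, against 1311 and 1310 CPM with DMSO. Its limma adjusted p was 0.0362 and its edgeR adjusted p 0.108, and the call was lost under own-total scaling. Oligodendrocyte precursor markers summed to 171 and 169 CPM with the activator, against 154 and 147 CPM with DMSO, with 0 of 4 tested genes called, and Olig1 led the list. The parts of progenitors and glia in the member values were not tested.

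Other cell types gave low sums. Oligodendrocyte markers summed to 31.5 and 31.8 CPM with the activator, against 28.3 and 31.9 CPM with DMSO, and fibroblast and mural markers to 15.8 and 18.3 CPM with the activator, against 19.7 and 18.4 CPM with DMSO. Cnp and Dcn were the most abundant genes of these lists. Microglia markers summed to 3.67 and 2.88 CPM with the activator, against 4.53 and 4.34 CPM with DMSO, and Cx3cr1, Tmem119, C1qa, C1qb and Itgam were not among the genes analysed here. Endothelial markers summed to 1.73 and 1.75 CPM with the activator, against 1.65 and 1.80 CPM with DMSO, from Kdr and Tek. Kdr rose, with 1.10 and 1.24 CPM with the activator, against 0.343 and 0.601 CPM with DMSO and a limma adjusted p of 0.0364 and an edgeR adjusted p of 0.0530. Tek lay the other way, with 0.629 and 0.508 CPM with the activator, against 1.30 and 1.20 CPM with DMSO and a limma adjusted p of 0.0524. Under own-total scaling Kdr lost its call and Tek fell, with limma adjusted p of 0.104 and 0.0470. P2ry12, of the microglia list, also fell under that scaling, at a limma adjusted p of 0.0380.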

How the data were processed

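Ribosome-depleted total RNA of cultured cortical neurons was sequenced in 4 libraries. The authors deposited CPM per gene, a unit read from the values: each value was a whole number of reads within 0.01 reads for 100% of values. TopHat2, Cufflinks 2.0.0 and mm9 are named in the submitters' processing notes, with no role. The counting program, strand setting, annotation and row filter were not given in the sources used here.

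limma 3.58.1 in R 4.3.3 was fitted over all 16654 genes reaching 1 CPM in 2 or more libraries, on log2(CPM + 1), which understates fold changes of low genes, with a variance trend, two-sided, Benjamini-Hochberg adjusted, called at 0.05. The fit had 2 residual and 98 prior degrees of freedom, so the spread used for a gene comes mostly from genes as a whole. edgeR 4.0.16 on the recovered reads called 1872 genes higher and 2846 lower of 17710. DESeq2 1.42.0 was a further alternative, and the other settings tried stand with their effects. The scripts were tested on simulated data.

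The 44 members and all gene lists were chosen with earlier results of these data known. Per-library values were given for called members, the 2 most abundant of each role group, Mki67 and Top2a, and for up to 3 called genes of each other cell cycle list with the smallest p, with Cdkn1a and Cdkn1b in any case. Further values were added after they were seen. Exon lengths and overlaps came from GENCODE vM21, and promoters from RefSeq. Replicate numbers occur in both groups, with nothing in the labels to pair them.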

Additional observations from a re-analysis of the deposited data

How the results depend on the processing

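Of 44 members, 1 was higher and 0 lower. The higher count was 0 with DESeq2, edgeR, no filter on low values, no variance trend, coding genes scaled to their own total, quantile normalization and robust moderation, and 0 to 1 with 1 library left out. The lower count was 1 at 5 CPM, with quantile normalization and with robust moderation, 2 with edgeR and with coding genes scaled to their own total, and 0 to 1 with 1 library left out. The replicate block gave 2 higher and 2 lower members, and 22 higher among the other cell cycle genes. Same-numbered libraries deviated together with a correlation of 0.117, and with 2 pairs whether the numbers pair the libraries could not be settled. Against 12 higher other genes as reported, there were 6 with DESeq2, 2 with no trend, 3 with own-total scaling, and 5 to 13 with 1 library left out. Against 8 lower, there were 3 with DESeq2, 5 with no filter, 3 with no trend, and 2 to 7 with 1 library left out. The log2 ratios of summed CPM were -0.0609 and, without the G1 genes, -0.22 under own-total scaling. With 1 library left out, the lone library of its group was assumed to vary like the others. The cause of these shifts was not tested. Apart from edgeR and own-total scaling, the shares of genes called under these settings are not given here. The counts thus do not show changes particular to these genes. For 6 members the limma interval held a 2-fold fall.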

Other observations

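Annotated gene length had different medians for the calls in each direction among the further cell cycle genes, a pattern seen after the calls. The 12 genes that rose had a median span of 14.6 kb, and the 8 that fell had a median span of 71.6 kb, with ranges of 2.998 to 617 kb and 35.4 to 327 kb. The ranges overlapped, and the longest gene of all was 1 that rose. The 44 members had a median span of 14.1 kb, beside 27.1 kb over tested coding genes. No test was made of this difference.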
